A study of Mus musculus with 16 samples.

Results

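The genes described here are 6 that the endothelial cells lining the liver sinusoids are known for. Stab1, Stab2, Clec4g and Lyve1 encode receptors for scavenging and uptake, Kdr encodes the main signalling receptor for vascular endothelial growth factor (VEGF), and Egfl7 encodes a protein that endothelial cells secrete into their matrix. They were taken by symbol from 3 tables of FPKM, fragment counts scaled to transcript length and to the mapped fragments of a library, with 1 value for each group, which together name 5954 distinct rows. All 6 genes had a row for quiescent hepatic stellate cells (qHSCs), 1 of the 6, Stab1, had a row for GFP-intermediate activated stellate cells (aHSCs), and 0 of the 6 for GFP-high aHSCs. Each member stood alone in its row, with no other gene named beside it.

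Sinusoidal endothelial cells form the fenestrated wall between the blood and the space of Disse, in which stellate cells lie. They are among the most active scavenger cells of the body. Stabilins, the products of Stab1 and Stab2, are large transmembrane receptors that take up modified proteins, and stabilin-2 clears hyaluronan from the blood. Clec4g, also called LSECtin, is a C-type lectin, and Lyve1 is a hyaluronan receptor that also marks lymphatic vessels. Stab1 and Lyve1 are in addition known from tissue macrophages. Kdr, the VEGF receptor VEGFR2, is needed for endothelial cells to form and survive, and Egfl7 is known for its part in vessel tube formation.

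The series has 16 samples of sorted cells from 9 mice labelled as C57/Bl6 and male, although the methods give the qHSC donors as female. The qHSC samples came from 3 uninjured WT1CreERT2;Ai14 animals, in which tamoxifen at E10.5 switched on a red fluorescent lineage label in cells that then expressed WT1, and livers were taken after weaning. Label-positive and label-negative cells of the same 3 animals were the groups compared, 3 samples each. The aHSC samples were red-labelled cells of animals injured with carbon tetrachloride for 8 weeks, and all of them carried PDGFRbCre, which is constitutive and marks stellate cells and other mural cells, the Ai14 reporter and 1 GFP knock-in allele of WT1. Controls were PDGFRbCre;WT1_+_GFP;Ai14 and deleted animals PDGFRbCre;WT1_fl_GFP;Ai14, so that the controls too had only 1 intact WT1 allele. The GFP-high fraction had 3 control and 3 deleted samples, and the GFP-intermediate fraction, called low in the labels, had 2 of each, with 1 of its control samples pooled from 2 animals. The deleted gene itself was not analysed here.

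The stretch just before the transcription start is shown for the members so that a reader can compare the control regions of genes that differed alike between the groups. RefSeq entries on GRCm38.p6 were found for 5 members, with 1 start each for Stab1, Stab2, Clec4g and Kdr and 3 for Egfl7. Each line gives the 150 bases before a start, 5′ to 3′ on the strand of the gene. Capitals mark AGGAAG, a single form of the ETS factor motif, or its reverse complement CTTCCT.
Stab1, chr14:31168642-31168791 (minus strand): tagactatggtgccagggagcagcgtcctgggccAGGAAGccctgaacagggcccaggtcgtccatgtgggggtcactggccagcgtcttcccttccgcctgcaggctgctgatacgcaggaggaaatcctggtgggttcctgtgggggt
Stab2, chr10:87007943-87008092 (minus strand): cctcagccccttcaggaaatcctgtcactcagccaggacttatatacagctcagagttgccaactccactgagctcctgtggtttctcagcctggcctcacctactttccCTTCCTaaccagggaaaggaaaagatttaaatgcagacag
Clec4g, chr8:3720652-3720801 (minus strand): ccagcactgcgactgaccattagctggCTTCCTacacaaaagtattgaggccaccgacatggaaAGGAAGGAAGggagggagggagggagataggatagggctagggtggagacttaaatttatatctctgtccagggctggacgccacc
Kdr, chr5:75978456-75978605 (minus strand): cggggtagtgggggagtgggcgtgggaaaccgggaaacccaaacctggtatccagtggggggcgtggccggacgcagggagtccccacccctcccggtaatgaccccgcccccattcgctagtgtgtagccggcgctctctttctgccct
Egfl7, start 1, chr2:26580933-26581082 (plus strand): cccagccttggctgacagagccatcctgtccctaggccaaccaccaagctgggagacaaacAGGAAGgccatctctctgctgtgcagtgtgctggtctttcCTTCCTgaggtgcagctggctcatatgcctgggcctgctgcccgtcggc
Egfl7, start 2, chr2:26583715-26583864 (plus strand): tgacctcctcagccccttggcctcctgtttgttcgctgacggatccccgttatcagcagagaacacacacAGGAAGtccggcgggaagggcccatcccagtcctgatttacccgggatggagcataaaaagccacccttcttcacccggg
Egfl7, start 3, chr2:26586486-26586635 (plus strand): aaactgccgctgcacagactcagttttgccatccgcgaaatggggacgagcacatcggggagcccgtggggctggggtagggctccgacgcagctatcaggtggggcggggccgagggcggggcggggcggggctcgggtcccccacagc

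The ETS form AGGAAG stood in 5 of these 7 stretches, with 3 copies before Clec4g, of which 2 overlap. It had no copy before Kdr or the third start of Egfl7. Of all 32851 RefSeq stretches of the same length 19.7% held it. The KLF core CACCC, on either strand, stood in 3 of 7, against 37.4% of all. TATAAA, on either strand, stood in 1, against 7.57%. That was Clec4g, whose line holds the reverse complement TTTATA and not TATAAA itself. The forms AGATAA of the GATA motif and AACAAT of the SOX motif were searched in the same way on both strands. They stood in 0 of 7, against 5.65% and 5.31% of all. Other or shorter forms of these motifs were not searched, and some stand in the lines above, such as AGATAG before Clec4g and GGAA before Kdr. A match is a description of letters and not a binding site. The GC content of the stretches ranged from 50% for Stab2 to 71.3% for the third start of Egfl7, beside a median of 54% over all stretches.

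Egfl7 is also shown with the microRNA that lies inside it, because Egfl7 RNA is the primary transcript of miR-126, a microRNA typical of endothelium. In GENCODE vM21, Egfl7 spans chr2:26580014-26593120 on the plus strand of GRCm38 and holds Mir126a at chr2:26591357-26591429 on the same strand. The mature arm follows, with the seed, bases 2 to 8, in capitals.
mmu-miR-126a-3p: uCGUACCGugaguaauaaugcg
Mir126a had no row in any of the 3 tables, so the Egfl7 values below are of the host gene and not of the mature microRNA.

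The remaining members lie apart in the genome, with Stab1 at chr14:31139013-31168641, Stab2 at chr10:86841198-87008025, Clec4g at chr8:3707064-3720651, Lyve1 at chr7:110850607-110863239 and Kdr at chr5:75932827-75978458, all on the minus strand. The tables themselves give symbols and no positions for them. Exons of Stab1 overlap Nt5dc2, those of Stab2 the antisense models Gm16268 and Gm16271, those of Clec4g the antisense model Gm16553, and those of Egfl7 the models Gm20532 and Agpat2. None of these 6 overlapping genes had a row, and whether reads were assigned by strand is not given in the sources used here.

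In qHSCs all 6 genes were higher in lineage label-positive than in label-negative cells, by 2.44-fold for Egfl7 to 3.63-fold for Lyve1. The values are the group FPKM of the authors, which combine 3 samples each, so the spread over animals is not known and no test was made. With ratios centred on the median of all rows, the log2 ratios of the members were 0.69 to 1.27 and 2 of the 6 were at least 2-fold higher. The table lists only genes that the authors had selected as differentially expressed, so a difference in itself was a condition of having a row. Of all 5716 rows 37.7% were at least 2-fold higher in label-positive cells, and 50.4% were higher by any amount. In bulk samples a larger number of cells of a type and more RNA per cell cannot be told apart.

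Among the scavenger receptors, Clec4g stood at a group FPKM of 1022.5 without and 2787 with the lineage label, a log2 ratio of 1.45. This made it the most abundant of the 6 in both groups and the 3rd most abundant row of the whole table in label-positive cells, against the 35th in label-negative cells. Stab1 had 437 without and 1093 with the label, a log2 ratio of 1.32, and stood at ranks 117 and 17. Stab2 had 309 and 845, a log2 ratio of 1.45. Lyve1 stood apart at a far lower level, with 27.4 and 99.4, and had the largest log2 ratio of the 6, 1.86.

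Of the vascular genes, Kdr stood at a group FPKM of 272 without and 848 with the label, a log2 ratio of 1.64 and the second largest fold of the 6, at 3.12. Egfl7 had 444 and 1082, a log2 ratio of 1.28. The order by level, which can be read across genes because FPKM is scaled to transcript length, began with Clec4g and ended with Lyve1 in both groups. Egfl7 and Stab1, and Stab2 and Kdr, stood in opposite order in the groups, but the neighbours of each pair lay within 1.14-fold of one another in either group, and without replicate values it cannot be said that they differed.

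**Figure D1:**
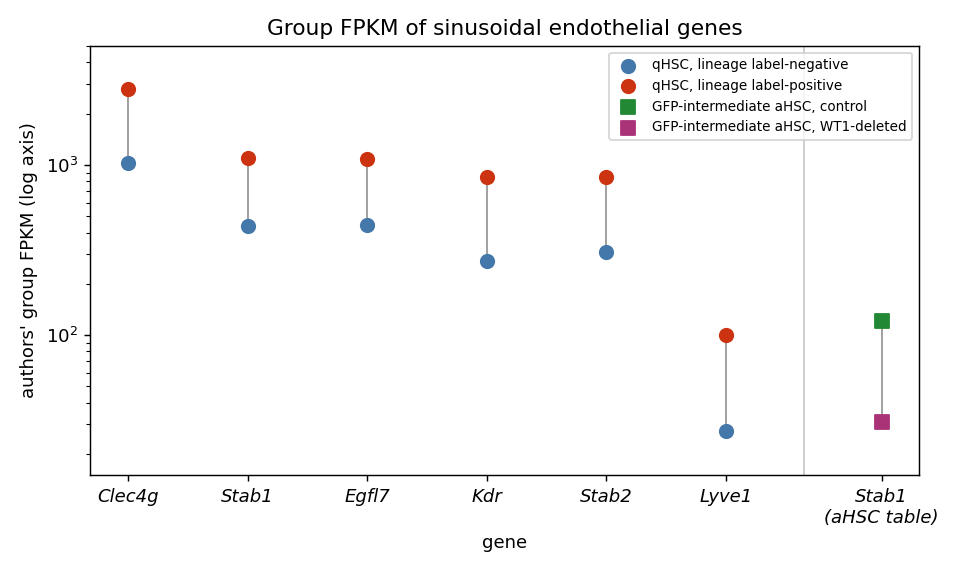
Group FPKM (log axis) of the 6 genes in label-negative and label-positive qHSCs, joined by a line per gene, and at the right Stab1 in control and WT1-deleted GFP-intermediate aHSCs, from a separately normalised table. In qHSCs each label-positive point lies above its label-negative point, from 99.4 against 27.4 for Lyve1 to 2787 against 1022.5 for Clec4g, while Stab1 in GFP-intermediate aHSCs goes from 120.4 to 30.8.

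The proportions of the 6 transcripts to one another were close in both qHSC groups. Their FPKM summed to 2512 without and 6755 with the label, a ratio of 2.69. Clec4g made up 40.7% of the sum without and 41.3% with the label, and Stab2 12.3% and 12.5%. Kdr had 10.8% and 12.6%, Stab1 17.4% and 16.2%, and Lyve1 1.09% and 1.47%, with Egfl7 making up the rest. These shares do not depend on how a group was scaled. The pair that kept its proportion most closely was Stab2 and Clec4g, with 0.303 Stab2 per Clec4g in each group. The pair whose proportion differed most was Lyve1 and Egfl7, at 0.0616 and 0.0918 Lyve1 per Egfl7.

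The members were next placed in the whole qHSC table by ratio and by level. Between 73.6% (Egfl7) and 91.9% (Lyve1) of all rows had a lower log2 ratio than a member. By FPKM in label-positive cells 5 of the 6 were among the first 34 of 5716 rows, and Lyve1 was at rank 535. Among 725 abundant rows, those whose higher group reached 100 FPKM, 410 were higher in label-positive cells and 316 at least 2-fold higher. The genes nearest to each member in log2 ratio, among 532 rows that reached 100 FPKM in label-positive cells, were Mmp14 and Gng12 for Stab1, Adam23 and Tspan7 for Stab2, Cyp4b1 and Tspan7 for Clec4g, Tns3 and Itga9 for Lyve1, Ehd3 and Adgrl2 for Kdr, and Akr1b8 and Npr1 for Egfl7. This likeness rests on 1 ratio of 2 groups, and differed from the member by at most 0.037 on the log2 scale. Ehd3, with an FPKM of 377 and 1176, and Tspan7, with 320 and 873, were the most abundant of these genes.

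**Figure D2:**
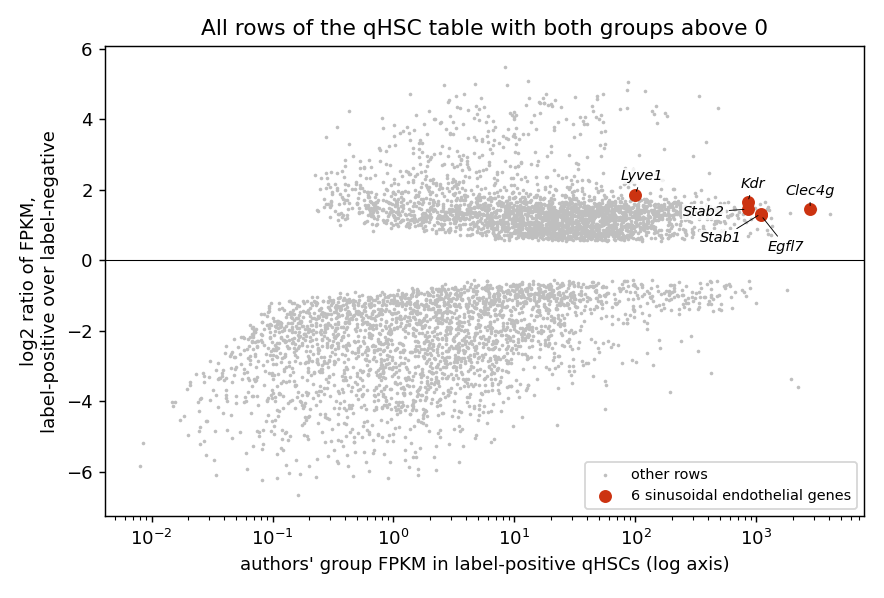
Log2 ratio of FPKM, label-positive over label-negative qHSCs, against the FPKM in label-positive cells (log axis) for every row with a value above 0 in both groups, with the 6 genes in red. The empty band around 0, from -0.55 to 0.55, shows that the table lists only genes selected for a difference, and 5 of the 6 genes lie at the far right of the upper cloud.

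Further genes of sinusoidal endothelium, vessels and vascular signalling were mostly higher in label-positive cells too. Of 140 such genes from 9 lists, members not counted, 103 had a row, 96 higher and 7 lower in label-positive qHSCs, with a median log2 ratio of 1.41. Of these 103 rows 54.4% lay within the range of the members, 1.28 to 1.86, as did 18.3% of all rows. That range lies above 0, so the 2833 of all 5716 rows that were lower could not fall in it. Among higher rows alone, it held 56 of the 96 of the lists and 1045 of the 2883 of the whole table. No list was tested, because each row had been selected for a difference and members of a list are not replicates.

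Of 18 genes listed as other endocytic receptors 14 had a row, 12 of them higher in label-positive cells. Fcgr2b, the inhibitory Fc receptor that takes up immune complexes, had 750 FPKM without and 1901 with the label. Mrc1, the mannose receptor, had 268 and 791, and Cd36, a scavenger receptor for lipids, 86.6 and 346. The 2 lower rows were Cd209a, a lectin known from dendritic cells, with 23.7 and 3.79, and Ptpro, with 12.6 and 2.73. Ptpro encodes a tyrosine phosphatase of receptor type and not an endocytic receptor.

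Of 16 VEGF, angiopoietin and semaphorin genes 13 had a row, and 11 were higher in label-positive cells. Plxnd1, a semaphorin receptor, had an FPKM of 226 and 648. The VEGF co-receptor Nrp1 had 163 and 498, Flt4, the receptor for VEGF-C, 92.8 and 287, and the angiopoietin receptor Tek 89.1 and 258. The 2 lower rows were those of ligands, Vegfa with 28.3 and 12.5 and Pgf with 0.607 and 0.159, so that the receptor Kdr and its ligand Vegfa differed in opposite directions between the same groups. Further ligands, Vegfb with 14.1 and 29.7, Vegfc with 1.12 and 4.86 and Angpt2 with 1.92 and 7.61, were higher. The genes below the first 4 by level were picked after their values were seen.

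Of 11 BMP and endoglin genes 8 had a row, all higher in label-positive cells. The co-receptor Eng had an FPKM of 470 and 1262, and Bmp2 had 176 and 538. Of 12 Notch pathway genes 7 had a row, 6 of them higher, among them the receptor Notch4 with 20.9 and 61.7 and its ligand Dll4 with 17.6 and 74.7. The lower one was Rbpj, the nuclear partner of Notch, with 17.6 and 10.7.

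Of 24 junction and adhesion genes 22 had a row, all higher in label-positive cells. Ramp2, a partner of the adrenomedullin receptor, had an FPKM of 245 and 601, Gpr182 had 184 and 583, and the tight junction gene Cldn5 186 and 482. Of 25 endothelial transcription factors 15 had a row, all higher. They were led by Maf, with 157 and 423, Ets2, with 147 and 255, and Sox18, with 65.4 and 193. Of 16 angiocrine and coagulation genes 15 had a row, all higher, led by the secreted nuclease Dnase1l3, with 445 and 1211, and Oit3, with 382 and 1013.

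The last lists hold genes better known from capillaries and large vessels and from lymphatic vessels. Of 15 capillary and large vessel genes 11 had a row, 9 higher, with a median log2 ratio of 1.29. Plvap, a protein of fenestral diaphragms, had an FPKM of 58.5 and 143, and the lower rows were Rgcc, with 38.3 and 3.73, and Ly6c1, with a log2 ratio of -1.29. Of 9 lymphatic genes 4 had a row, all higher. Lyve1, with 27.4 and 99.4, stood between these genes in level in either group. Flt4, with 92.8 and 287, and Itga9, with 45.2 and 160, were above Lyve1. Sema3d and Prox1, the factor that defines lymphatic identity, were below Lyve1, Prox1 with 0.617 and 2.81. Pdpn, Ccl21a, Mmrn1, Reln and Nts had no row, which leaves their level unknown. The part of lymphatic cells in the values of Lyve1 was not tested.

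**Figure D3:**
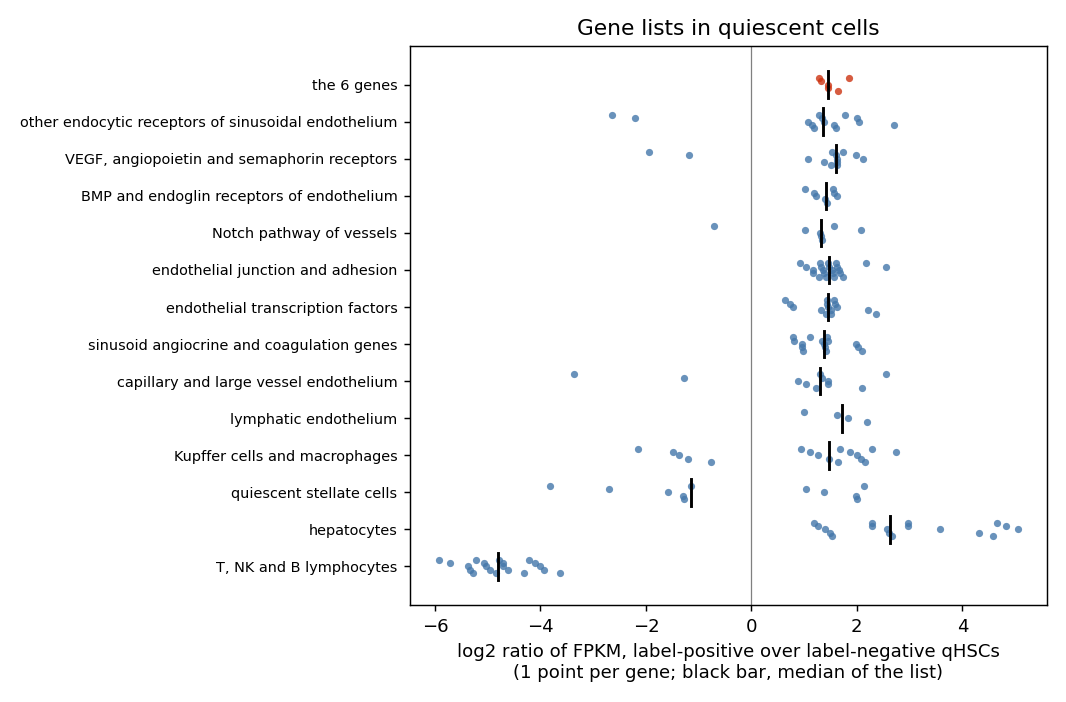
Log2 ratio of FPKM, label-positive over label-negative qHSCs, for each gene with a row, by gene list, with a black bar at the median. The 6 genes, in red, and the endothelial lists centre between 1.29 and 1.73, hepatocyte genes at 2.64 and lymphocyte genes at -4.81.

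Markers of other cells also differed between the qHSC groups, and their part in the values of the 6 genes was not tested. All 20 genes of a T, NK and B lymphocyte list had a row, and their FPKM summed to 2166 without and 80.4 with the lineage label. Of 21 hepatocyte genes 18 had a row, summing to 265 and 2023. Of 20 Kupffer cell and macrophage genes 17 had a row, 12 higher and 5 lower, with a median log2 ratio of 1.47, inside the range of the members, but with sums of 2276 and 1721. The lower sum rests on Lyz2, a lysozyme gene of myeloid cells, with 1283 and 289, a larger difference than that of the sums. Ctss, Cd14, Mpeg1 and Cd68 were the other lower rows. The Kupffer cell marker Clec4f had 34.2 and 166. None of these genes was listed at 0 in either group.

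Markers of the labelled cell type were read as well. Of 20 genes typical of quiescent stellate cells 11 had a row, 5 higher and 6 lower in label-positive qHSCs. The FPKM of these 11 summed to 154 without and 120.0 with the label. Genes of the list that were not selected for a difference are missing from this sum, so it does not give the level of stellate cell transcripts. The receptor gene Pdgfrb, a marker of stellate cells, had an FPKM of 0.905 and 0.370, and the stellate cell gene Colec11 had 0.221 and 0.882. Both are among the lowest rows of the list and were named after their values were seen. Dcn, a matrix gene, led the list with 109 and 49.0. Lrat, Des, Gfap, Reln, Hand2, Lhx2, Ecm1, Ank3 and Plin2 had no row, which leaves their level unknown. Of the members, 5 were above Dcn in both groups, while Lyve1 with 27.4 and 99.4 was below it without the label and above it with the label.

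After WT1 deletion in GFP-intermediate aHSCs Stab1 was lower. Its group FPKM was 120.4 for the controls and 30.8 after deletion, 3.91-fold lower, a log2 ratio of -1.97. The log2 ratio was -0.45 when centred on the median of all rows and -1.08 with both groups scaled to the same summed FPKM. Stab2, Clec4g, Lyve1, Kdr and Egfl7 had no row, which does not show that they did not differ. Of the 419 rows with a gene name 62.8% were at least 2-fold lower after deletion, and 22.9% had a log2 ratio below that of Stab1. Each group here combined 2 samples, and no spread can be given.

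Genes of the endothelial lists with a row beside Stab1 were few, and the cell type from which their reads came was not tested. Of 140 genes of the 9 lists 8 had a row, 7 lower and 1 higher. The endocytic receptors among them were Mrc1, with an FPKM of 36.1 in control and 9.88 in deleted cells, Cd36, in a row with Mir5109, with 389 and 57.7, and Clec1b, in a row with Clec9a, with 42.2 and 14.1. Cdh5, the cadherin of endothelial junctions, had 17.9 and 8.09, a log2 ratio of -1.15, and the transcription factor gene Fli1 had 18.7 and 8.15. Hgf, which is also on the quiescent stellate cell list, had 9.45 and 3.35, and Car4 had 0.339 and 0. The higher one was Rspo3, a secreted amplifier of Wnt signalling, with 1.12 and 4.58.

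Macrophage genes were lower as well, and their part in the value of Stab1 was not tested. Of 20 Kupffer cell and macrophage genes 14 were named in 13 rows, all 13 lower after deletion, with a median log2 ratio of -1.91, a range of -2.54 to -1.42 and a summed FPKM of 5235 in control and 1286 in deleted cells. Clec4f had a log2 ratio of -1.99 and Emr1, which encodes the macrophage marker F4/80, had 131 FPKM in control and 32.8 in deleted cells. Of all 419 rows with a gene name 263 were lower too, and of the 58 that reached 100 FPKM in the higher group 52 were. None of the 13 macrophage rows was listed at 0. Quiescent stellate cell genes went mostly the other way, with 4 of 5 rows higher.

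**Figure D4:**
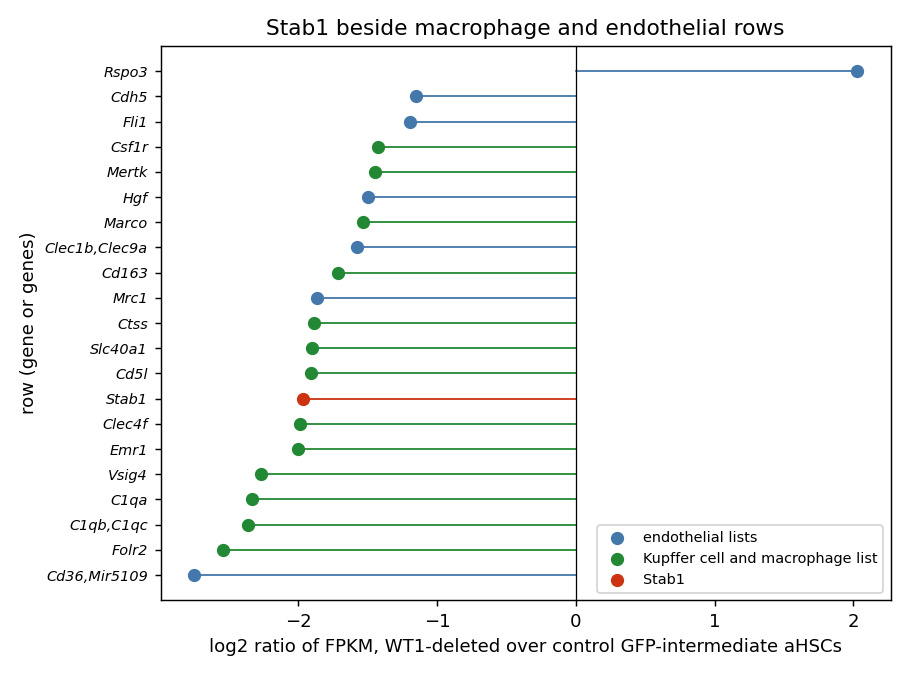
Log2 ratio of FPKM, WT1-deleted over control GFP-intermediate aHSCs, for Stab1 (red) and every row of the macrophage (green) and endothelial (blue) lists with both groups above 0, with names as in the table. Stab1 at -1.97 lies next to Clec4f at -1.99, Cdh5 and Fli1 lie at -1.15 and -1.20, and Rspo3 at 2.03 is on the other side.

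The amount of Stab1 relative to macrophage genes within a group differed widely between the tables. Such a ratio does not depend on the scaling of a group. Some genes have older symbols in the aHSC table, so the annotations may differ, and the part of this was not tested. The FPKM of Stab1 divided by the summed FPKM of 10 macrophage genes with rows of their own in both tables was 0.0357 in control and 0.0354 in WT1-deleted GFP-intermediate aHSCs. The qHSC values were 0.812 without and 1.04 with the lineage label. Relative to Clec4f, Stab1 was at 0.694 and 0.704 in the aHSC groups and at 12.8 and 6.60 in the qHSC groups. Relative to the endothelial gene Cdh5, it went from 6.71 in control to 3.81 in deleted aHSCs, and was 3.38 and 2.85 in qHSCs. Relative to Mrc1, which sinusoidal endothelium and macrophages both express, it was 3.34 and 3.12 in the aHSC groups, and relative to the macrophage gene C1qa 0.198 and 0.255. Single genes of either kind thus gave proportions that were close or apart in control and deleted cells, and the cell type from which the Stab1 reads came was not tested.

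**Figure D5:**
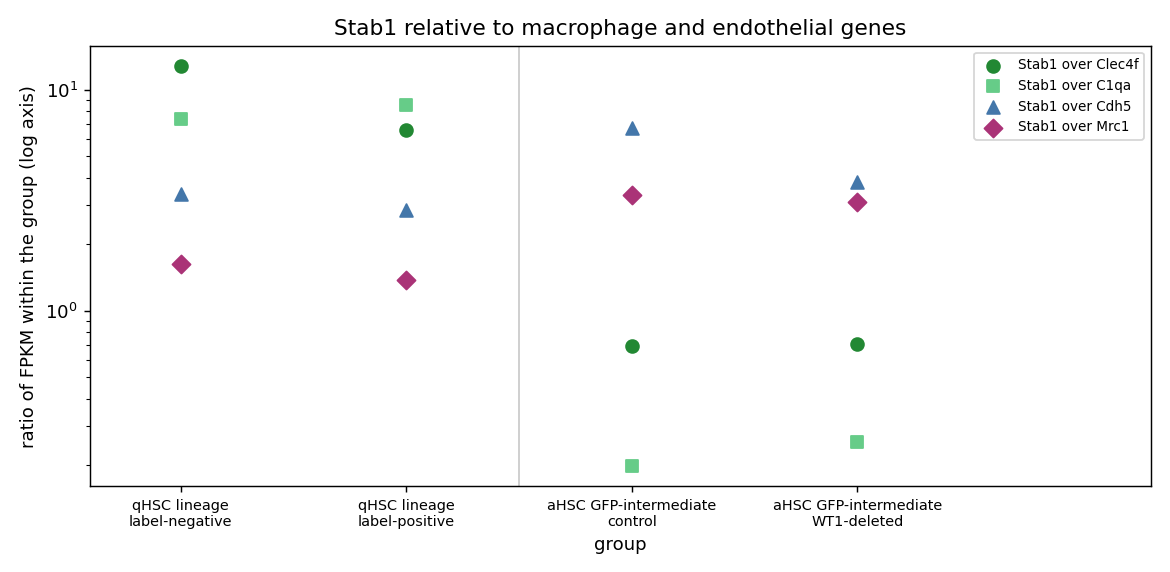
Ratio of the FPKM of Stab1 to that of Clec4f, C1qa, Cdh5 and Mrc1 within each group (log axis), for 2 qHSC and 2 GFP-intermediate aHSC groups. Stab1 over Clec4f is 12.8 and 6.60 in qHSCs and 0.694 and 0.704 in aHSCs, and Stab1 over C1qa, a complement gene of macrophages, goes from 7.36 and 8.53 to 0.198 and 0.255.

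In GFP-high aHSCs none of the 6 genes had a row among the 123 with a gene name. The same held for all 140 genes of the endothelial lists and for the 20 macrophage and 20 quiescent stellate cell genes. Whether Stab1 responded to WT1 deletion differently in the GFP-high and GFP-intermediate fractions was not tested, since it has a value in 1 of them alone.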

How the data were processed

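RNA of sorted cells was sequenced on an Illumina HiSeq. Per the methods, reads were mapped with bowtie 2 and Cuffdiff2 was used to call differential expression where the adjusted p-value was under 0.05. The submitters' processing notes list TopHat2 2.0.3, Cufflinks 2.0.1, DESeq2 and the builds mm9 and mm10, without the role of each. The authors deposited FPKM values, 1 per group and selected gene, so samples had been combined before deposit and the depth is unknown. Further deposited tables repeat these values beside the authors' own fold changes, p-values and q-values, which were not used. No column of values per sample was left unused (0 columns).

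From the group FPKM the log2 ratio was computed without a pseudocount. No test was possible. The lists were read by symbol, with 3 older symbols joined to current ones through RefSeq (GRCm38.p6), and loci without a gene name were left out of counts. Genes named from a list are the members, up to 4 per list with the highest FPKM, and the 2 rows nearest to each member in log2 ratio. Others, such as rows that went against their list, were named after their values were seen. The members and lists were chosen with earlier results of these data known. The log2 ratio calculation was run on values multiplied by known factors, without noise, which checks the arithmetic alone. Calculations used Python 3.11.15 and figures matplotlib 3.10.9, and loci are from GENCODE vM21.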

Additional observations from a re-analysis of the deposited data

How the results depend on the processing

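The direction of each of the 6 members in qHSCs and of Stab1 in GFP-intermediate aHSCs was the same under every alternative tried. In qHSCs the median log2 ratio of the members was 1.45 as deposited and with a pseudocount of 1 or 0.1 FPKM. It was 0.85 when ratios were centred on the median of all rows, which shifts them by -0.59, and 1.86 when each group was scaled to the same summed FPKM. The median of all rows, 0.59, lies at the edge of the empty band around 0, because only selected genes are listed. With centring, 2 of the 6 members, Lyve1 and Kdr, were at least 2-fold higher, and 2 were higher by at least 3-fold as deposited. The fold of 1.5, the scaling to the same sum, the pseudocount and a minimum FPKM of 1 left all 6. For Stab1 in GFP-intermediate aHSCs the log2 ratio of -1.97 became -1.93 with a pseudocount of 1, -0.45 when centred on all rows, -1.08 with the same summed FPKM and, in an alternative added after the data were seen, -0.60 when centred on rows with a gene name. The numbers of members with a row were unchanged under both alternatives tried for them. No paired analysis was possible because the tables hold 1 value per group, although both qHSC fractions came from the same animals. For the same reason no replicate could be left out.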

Other observations

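In the angiocrine and Notch lists of qHSCs, genes chosen after their values were seen lay on either side of the members' range. Wnt2 and Wnt9b, Wnt ligands that endothelial cells near the central vein are known to supply, had log2 ratios of 0.96 and 0.79, label-positive over label-negative, and Rspo3 had 0.80. Kit and Thbd, at 0.97 and 0.96, were also below the lowest member. Efnb2 and Dll4, known from arterial and portal-side endothelium, were above the highest member, at 1.97 and 2.08. Ltbp4 at 2.03 and Vwf at 2.09 were above it too. Other Notch genes did not follow Dll4. Dll1 at 1.02 was below the lowest member, while Jag1 at 1.32, Hes1 at 1.33 and Notch4 at 1.56 lay within the range. Gja4 and Sox17, of the capillary and large vessel list, were at 1.23 and 1.45. A division of the lists by place in the lobule was not tested. Wnt2 had an FPKM of 49.4 without and 96.2 with the label, and Efnb2 9.28 and 36.5. Without values per sample none of these differences was tested.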
